A study of Rattus norvegicus with 9 samples.

Results

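The genes described here code for the RhoA, ROCK and LIM kinase pathway: the GTPases Rhoa, Rhob and Rhoc, the ROCK kinases Rock1 and Rock2, the LIM kinases Limk1 and Limk2, cofilin (Cfl1), the GTPase effector rhotekin 2 (Rtkn2) and the actin-binding RhoA activator Abra, also called STARS. They were taken from whole prostates of rats, and a gene was included when the accession of an array probe mapped to its rat symbol. Of the 10 genes, 9 had such a probe, among 26905 genes on the array in all; Rhob had 2 probes, and Rock1 is not analysed here. RNA from 9 prostates, 3 per group, had been hybridized to Agilent one-colour rat arrays. All rats were male Sprague Dawley rats, 6 weeks old on arrival. The sham group had undergone sham operation for castration and received corn oil subcutaneously and water by gavage. The BPH group (benign prostatic hyperplasia) was castrated, injected subcutaneously with dihydrotestosterone (3 mg/kg daily, 4 weeks) and gavaged with water. The BPH+ghrelin group was castrated and injected in the same way, and was given rat ghrelin (20 nmol/kg daily) by gavage for the last 2 weeks, as given in the methods of the study; a figure legend there gives another dose and intraperitoneal injection. Castration and dihydrotestosterone were therefore shared by BPH and BPH+ghrelin and always given together, so that their effects cannot be told apart, and no group received ghrelin without them. Each group held 8 rats, and which 3 of them were used for arrays is not given in the sources used here.

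RhoA is a small GTPase that exchange factors (GEFs) switch on and GTPase-activating proteins (GAPs) switch off. Active RhoA stimulates the ROCK kinases, which inhibit myosin light chain phosphatase, so that smooth muscle contracts at a given calcium concentration, and which phosphorylate the LIM kinases; these in turn inactivate the actin-severing protein cofilin. Polymerized actin releases MRTF coactivators for the transcription factor SRF, a branch that STARS also feeds, and ROCK takes part in contraction of prostate smooth muscle. Protein levels, phosphorylation and GTP loading, by which this pathway is mostly regulated, were not measured on these arrays. In whole tissue, fewer cells of a type and less RNA per cell cannot be told apart.

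Signals are given as log2 values after quantile normalization, and a difference of 1 corresponds to a 2-fold change. A gene was called changed at an adjusted p under 0.05 (limma, Benjamini-Hochberg over all genes of a comparison). Prostate identity held on every array: all 10 genes on a list of rat prostate secretory epithelium had a probe, and 9 of them were well above background on all arrays. Summed signals of a list were taken over those genes that 3 or more arrays measured well above background. Probasin (Pbsn) lay at 16.16 to 16.41 in sham, 13.11 to 14.11 in BPH and 14.34 to 14.46 in BPH+ghrelin. Other genes of this list differed less. Means in sham, BPH and BPH+ghrelin were 14.17, 14.55 and 14.44 for Hoxb13 and 14.55, 14.35 and 14.34 for Krt18. The summed signal of 9 secretory genes was 200931 to 207405 in sham, 56902 to 87162 in BPH and 65678.5 to 82646 in BPH+ghrelin. Sham replicate 2 stood apart, with a median raw signal of 40.9 against 73.3 to 133 on the other arrays, and 68.4% of its spots well above background against 75.03% to 79.9%. BPH replicate 2, BPH+ghrelin replicate 2 and sham replicate 3 each lay between the other arrays of their group for 74.7%, 72.1% and 76.9% of 17858 probes. The scan times placed all BPH arrays and BPH+ghrelin replicate 1 in one scan, the other BPH+ghrelin arrays and sham replicates 1 and 2 in another, and sham replicate 3 in one of its own. BPH and sham thus shared no scan, and a fit with scan as a block compares them only through the BPH+ghrelin arrays. Secretory genes of the seminal vesicle, an adjacent gland, differed between groups as well: 5 of 6 listed genes had a probe, and their summed linear signal was 90188 to 157603 in sham, 713 to 28272 in BPH and 545 to 3880 in BPH+ghrelin. The corresponding sums in sham, BPH and BPH+ghrelin were 13303 to 24415, 20080 to 30111 and 18827 to 26102 for 10 fibroblast genes, 4383 to 6188, 5312 to 7103 and 7317 to 7738 for 5 basal epithelial genes, 37290 to 41686, 41116 to 49616 and 35688 to 46984 for 7 macrophage genes, and 1161 to 1467, 842 to 1309 and 772 to 903 for 5 endothelial genes. Such linear sums weigh the brightest genes of a list most. By gene, the mean was lower in BPH+ghrelin than in BPH for 8 of 9 fibroblast and 6 of 7 macrophage genes tested. It was lower for 3 of 5 basal, 4 of 5 endothelial and 9 of 9 smooth muscle genes. The median deviation of the basal list from the 9-array mean was 0.21 to 0.28 in BPH and -0.013 to 0.076 in BPH+ghrelin. Its sum was higher in BPH+ghrelin. The part of these differences in the values below was not tested.

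Rhoa, the central GTPase of the pathway, was the member that changed in BPH compared to sham. Its signal was 11.61, 11.65 and 11.66 in BPH, 11.20, 10.52 and 10.90 in sham, and 11.09, 10.997 and 10.99 in BPH+ghrelin. All BPH arrays were above all others, and the sham and BPH+ghrelin arrays overlapped. Rhoa rose in BPH by 0.77 ± 0.17 (SE, n = 3 per group, limma adjusted p = 0.0466), corresponding to 1.70-fold, and it was 1 of 9 members called, against 4.33% of all 19552 genes tested (2.15% called and higher). The call was close to the threshold. It was kept without sham replicate 1 (0.93, limma adjusted p = 0.0164) and without sham replicate 2 (0.59, limma adjusted p = 0.0441), was lost without any one of the other 7 arrays, and was lost with scan as a fixed block (0.68, limma adjusted p = 0.834). BPH+ghrelin was lower than BPH by 0.61 ± 0.17, which did not pass (limma adjusted p = 0.107). This difference passed in 3 of 20 other settings, among them 1 with an array left out (limma adjusted p = 0.0236). Within the shared scan, BPH+ghrelin replicate 1 differed from the BPH mean by -0.55. BPH+ghrelin and sham differed by 0.15 ± 0.17 (95% interval -0.24 to 0.54, limma adjusted p = 0.632). The summed signal of 9 smooth muscle genes was 18065, 26134 and 34529 on the BPH arrays, 19016, 17798 and 17236 on the BPH+ghrelin arrays and 31310, 17719 and 24579 on the sham arrays. Within each group Rhoa had the same order as this sum, whereas the sums of BPH and sham overlapped; its part in the Rhoa values was not tested. Over the 9 arrays, the genes with a pattern most alike to that of Rhoa among 9691 named genes detected on all arrays were Atp6v0e1 (Pearson r = 0.995), Zkscan3 (0.994) and Ip6k1 (0.993), which is a description of arrays that share group and scan.

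**Figure D1:**
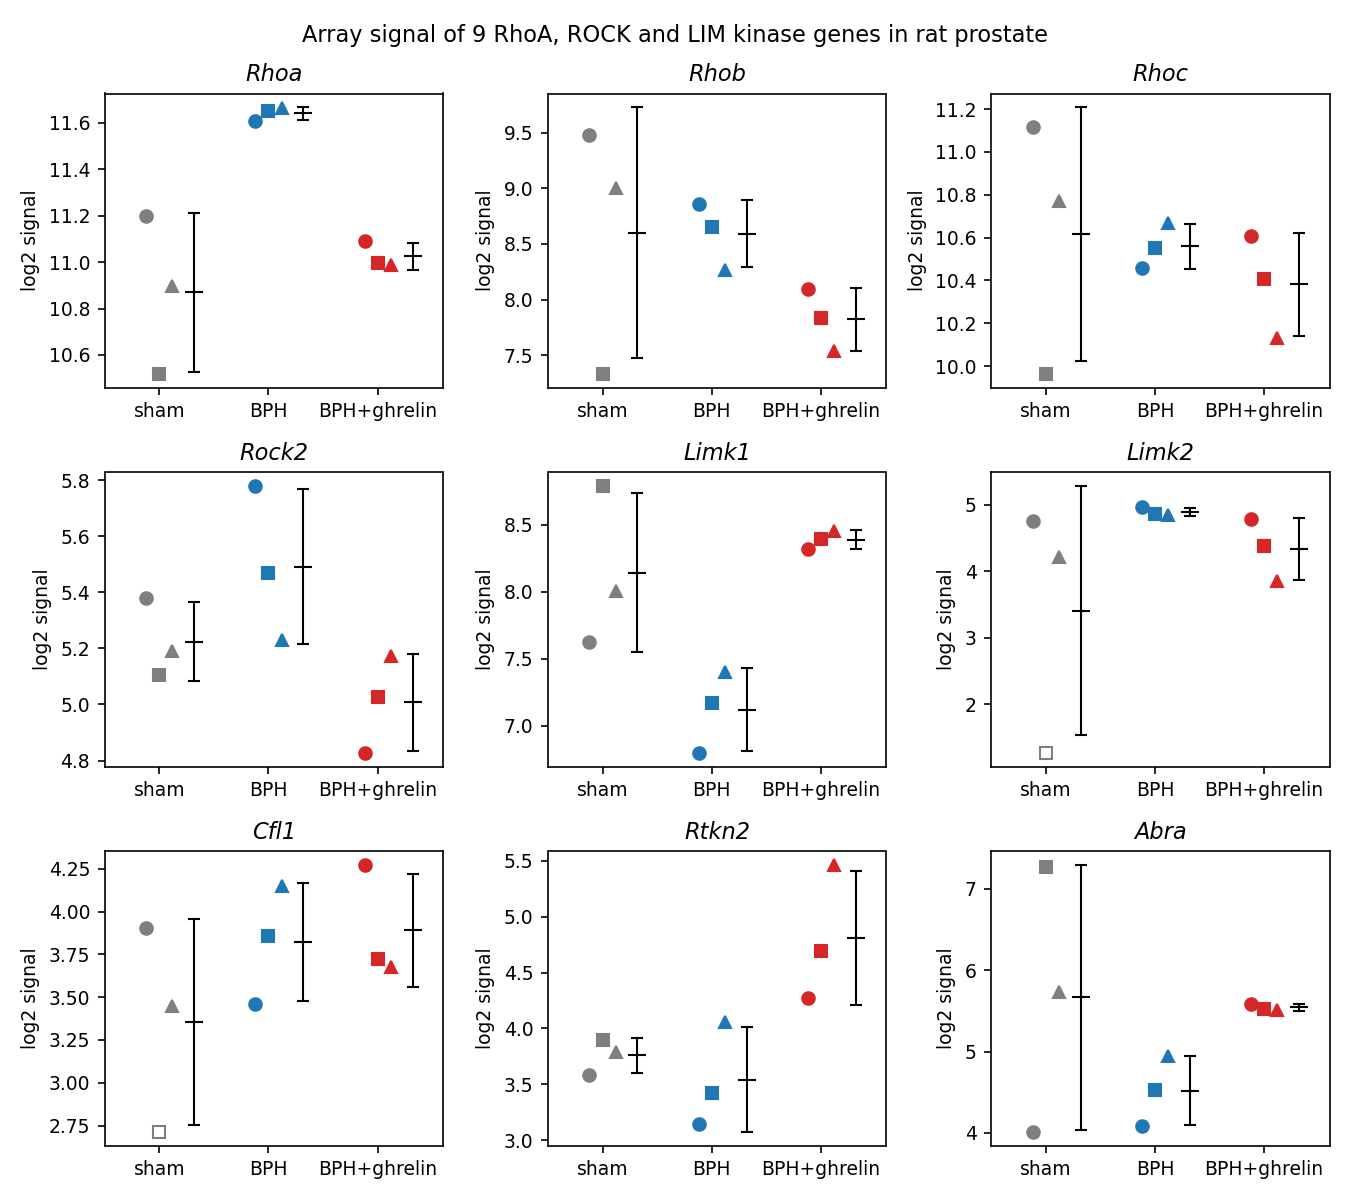
Quantile-normalized log2 signal (vertical axes, a separate scale for each gene) of the 9 genes with a probe on every array, by group; circles, squares and triangles are replicates 1, 2 and 3, open symbols are arrays on which the probe was not well above background, and black bars give mean ± SD (n = 3). Rhoa is highest on the BPH arrays, Limk1 is lowest there, and sham replicate 2 is the lowest or highest sham point for all 9 genes.

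The related GTPases Rhob and Rhoc, which regulate endosome traffic and cell motility besides actin, did not pass in any comparison. Rhob was 8.86, 8.65 and 8.27 in BPH, 8.10, 7.83 and 7.53 in BPH+ghrelin, and 9.48, 7.33 and 9.00 in sham. Its BPH+ghrelin arrays were all below the BPH arrays (difference -0.77 ± 0.49, limma adjusted p = 0.398), whereas the sham arrays spanned both groups. The order of group means was sham and BPH, which were nearly equal (BPH minus sham -0.0099 ± 0.49), followed by BPH+ghrelin. Without sham replicate 2, Rhob was called in BPH+ghrelin against sham, with a difference of -1.42 (limma adjusted p = 0.0178), whereas with it the difference was -0.78 ± 0.49 (limma adjusted p = 0.383). The second, dimmer probe of Rhob gave 4.37, 4.27 and 4.04 in BPH, 3.91, 3.38 and 3.16 in BPH+ghrelin, and 5.05, 0.69 and 4.57 in sham, where the value of 0.69 was not above background. Over 9 arrays both probes had a Pearson r of 0.85. Rhoc was 10.46, 10.55 and 10.67 in BPH, 10.61, 10.41 and 10.13 in BPH+ghrelin, and 11.12, 9.96 and 10.77 in sham. Its groups overlapped in all comparisons, with differences from -0.24 to -0.06.

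The stretch before the Rhob start is shown because Rhob was the member with 2 probes and a called difference that depended on 1 array. It is taken from the RefSeq promoter windows of build GRCr8 (chr6:37085205-37085454, minus strand, written in gene direction), with CCAAT boxes in capitals, a motif bound by the factor NF-Y.
Rhob: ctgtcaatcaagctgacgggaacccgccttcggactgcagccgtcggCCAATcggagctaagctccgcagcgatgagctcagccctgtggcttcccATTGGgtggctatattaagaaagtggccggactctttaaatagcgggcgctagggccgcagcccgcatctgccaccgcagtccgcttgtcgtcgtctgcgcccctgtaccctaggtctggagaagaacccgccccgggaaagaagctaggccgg

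The promoter windows run from 250 bases before to 50 bases after a start and were searched on both strands for the CArG box of SRF, the TEAD motif (CATTCC or GGAATG), the AP-1 motif (TGANTCA), a full androgen response element (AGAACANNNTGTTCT) and the CCAAT box (CCAAT or ATTGG). Of the 10 members, 9 had a window. The CCAAT box was found in 4 of them (Rhoa, Rhob, Limk1 and Cfl1), compared to 37.5% of 33469 windows of the same length. The other motifs were found in 0 of 9, against 1.64% (CArG box), 14.2% (TEAD), 7.33% (AP-1) and 0.0149% (androgen response element) of all windows. The Rhoa start used in that table lies inside the gene, so that its window is not shown.

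Rock2, which codes for the ROCK kinase detected here, was 5.78, 5.47 and 5.23 in BPH, 4.83, 5.03 and 5.17 in BPH+ghrelin, and 5.38, 5.10 and 5.19 in sham. The BPH+ghrelin arrays were below the BPH arrays and sham lay between and overlapped both. BPH+ghrelin differed from BPH by -0.48 ± 0.17 (limma adjusted p = 0.172) and BPH from sham by 0.27 ± 0.17 (limma adjusted p = 0.347).

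Limk1, a kinase that inactivates cofilin, was lowest in BPH. Its signal was 6.79, 7.17 and 7.40 in BPH, 8.32, 8.39 and 8.46 in BPH+ghrelin, and 7.63, 8.79 and 8.01 in sham. All BPH arrays were below all arrays of the other groups, and the BPH+ghrelin arrays lay within the range of sham. The difference was 1.27 ± 0.29 for BPH+ghrelin against BPH (2.41-fold, limma adjusted p = 0.0719) and -1.02 ± 0.29 for BPH against sham (limma adjusted p = 0.0811), and neither passed. The sham arrays moved these calls, in the first case through the shared estimate of the spread. Without sham replicate 2 the limma adjusted p of BPH+ghrelin against BPH was 0.0149, and without sham replicate 1 the difference of BPH from sham was -1.28 (limma adjusted p = 0.0263). Within the shared scan, BPH+ghrelin replicate 1 was above the BPH mean by 1.20. BPH+ghrelin and sham differed by 0.25 ± 0.29 (95% interval -0.41 to 0.91).

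The Limk1 promoter is shown because the BPH arrays of Limk1 overlapped with neither other group. In build GRCr8 it lies at chr12:27662927-27663176 on the plus strand, ends at the base before the start, and has a GC content of 72.8%, against a median of 51.2% over all windows; the CCAAT box is in capitals.
Limk1: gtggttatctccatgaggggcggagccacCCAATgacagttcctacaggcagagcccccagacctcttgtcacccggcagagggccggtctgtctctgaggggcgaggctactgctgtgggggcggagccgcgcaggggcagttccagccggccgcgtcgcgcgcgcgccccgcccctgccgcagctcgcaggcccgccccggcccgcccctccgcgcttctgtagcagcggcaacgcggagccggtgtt

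Limk2, the other LIM kinase, was 4.97, 4.87 and 4.85 in BPH, 4.78, 4.38 and 3.85 in BPH+ghrelin, and 4.75, 1.26 and 4.21 in sham; the value of 1.26 on sham replicate 2 was not well above background. All BPH arrays were above all other arrays, by a small margin. The differences of 1.49 ± 0.79 for BPH against sham and -0.56 ± 0.79 for BPH+ghrelin against BPH did not pass (limma adjusted p = 0.261 and 0.710). Without sham replicate 2, BPH and sham differed by 0.41 (limma adjusted p = 0.403). Limk1 minus Limk2 within an array, where 2 probes are set against each other only to compare groups, was 1.83, 2.30 and 2.55 in BPH, 3.53, 4.02 and 4.61 in BPH+ghrelin, and 2.87, 7.53 and 3.80 in sham. BPH was below both other groups without overlap. The difference was 1.83 for BPH+ghrelin against BPH (two-sided exact permutation p = 0.1). That is the smallest value that 3 against 3 arrays allow, so that this test could not give a call. For BPH against sham it was -2.51 with sham replicate 2, whose Limk2 value was not well above background, and -1.11 without that array, an alternative chosen after the data were seen. For BPH+ghrelin against sham it was -0.68 with that array and 0.72 without it, so that the sign depended on that array. The study's list of genes higher with ghrelin in hyperplastic prostates names Limk2, whereas the probe assigned to Limk2 here had a lower mean with ghrelin and that of Limk1 a higher one. Rtkn2 and Abra are on the same list, which was chosen from these arrays, so that their direction is no independent evidence. The study's table of correlations in human prostate names LIMK1 in place of LIMK2, while its text states that LIMK1 was not picked from the arrays. Which LIM kinase gene was meant cannot be told from this.

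**Figure D2:**
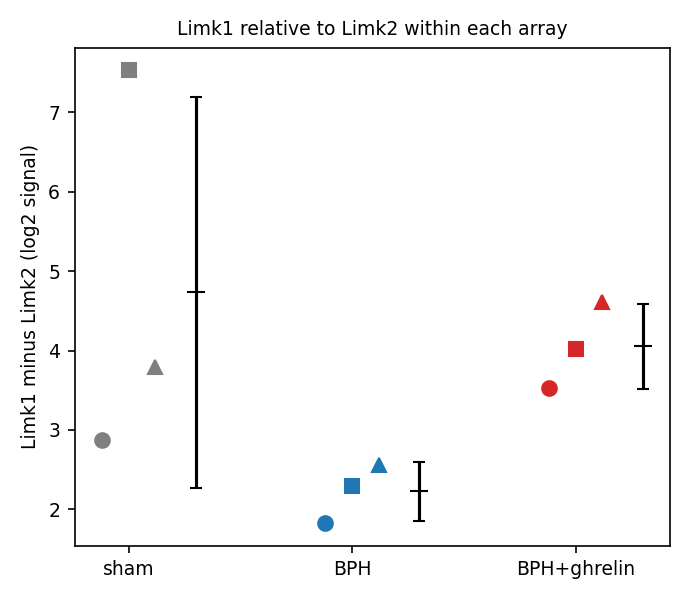
Limk1 minus Limk2 signal (log2, vertical axis) on each array by group, with replicates 1, 2 and 3 as circles, squares and triangles and mean ± SD (n = 3) as black bars. The BPH arrays lie at 1.83 to 2.55, below the BPH+ghrelin arrays at 3.53 to 4.61 and below sham, where replicate 2 with its undetected Limk2 lies at 7.53.

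Cfl1, the cofilin gene and the substrate of the LIM kinases, was read by a dim probe. It was 3.46, 3.86 and 4.15 in BPH, 4.27, 3.72 and 3.68 in BPH+ghrelin, and 3.903, 2.71 and 3.45 in sham, where replicate 2 was not well above background. The groups overlapped in all comparisons, and the differences of 0.07 to 0.54 did not pass.

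Rtkn2, an effector of RhoA-like GTPases, was higher with ghrelin, although not at the adjusted threshold. It was 4.27, 4.69 and 5.46 in BPH+ghrelin, 3.14, 3.42 and 4.06 in BPH, and 3.59, 3.89 and 3.79 in sham. All BPH+ghrelin arrays were above all other arrays, and BPH and sham overlapped. The difference was 1.27 ± 0.33 against BPH (2.41-fold, limma adjusted p = 0.0952) and 1.05 ± 0.33 against sham (2.07-fold, limma adjusted p = 0.0996). Within scans, it was 0.73 for BPH+ghrelin replicate 1 against BPH and 1.33 for BPH+ghrelin replicates 2 and 3 against sham replicates 1 and 2. With normexp background correction, which adds an offset of 50, the difference from BPH was 0.27. Of 10 listed proliferation genes, 8 had a probe, and their summed signal, which was not tested, was 5832 to 8953 in BPH+ghrelin, 3206 to 5404 in BPH and 2675 to 3563 in sham. Rtkn2 and this sum had the same order within BPH and the opposite order within BPH+ghrelin and within sham, and the part of proliferation in the Rtkn2 values was not tested. The most alike patterns were those of Zfp652 (Pearson r = 0.975), Nell2 (0.974) and Pga5 (0.970) over 9 arrays.

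Abra, an actin-binding protein of striated and smooth muscle that activates RhoA and SRF signalling, was 5.59, 5.53 and 5.52 in BPH+ghrelin, 4.09, 4.53 and 4.94 in BPH, and 4.01, 7.26 and 5.73 in sham. The BPH+ghrelin arrays were close together and above all BPH arrays, while sham spanned the full range. The difference of BPH+ghrelin from BPH was 1.02 ± 0.69 (2.03-fold, limma adjusted p = 0.417), with the spread of sham included in the error. When only the 6 BPH and BPH+ghrelin arrays were normalized and fitted, it was 1.04 (limma adjusted p = 0.0406). BPH and sham differed by -1.15 ± 0.69 (limma adjusted p = 0.314), by -0.35 without sham replicate 2 and by -1.98 without sham replicate 1, where it passed (limma adjusted p = 0.0297). With normexp the difference of BPH+ghrelin from BPH was 0.31. Of 20 striated muscle genes, 17 had a probe and 16 entered the sum, which was 2922 to 3298 in BPH+ghrelin, 2240 to 5069 in BPH and 4635 to 4799 in sham. Abra and this sum had the same order within BPH and within BPH+ghrelin but not within sham, where the sums were 4799, 4734 and 4635, and the part of striated muscle in the Abra values was not tested. Mobp (Pearson r = 0.984) and Isoc2b (0.981) had the most alike patterns among the genes reported here.

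**Figure D3:**
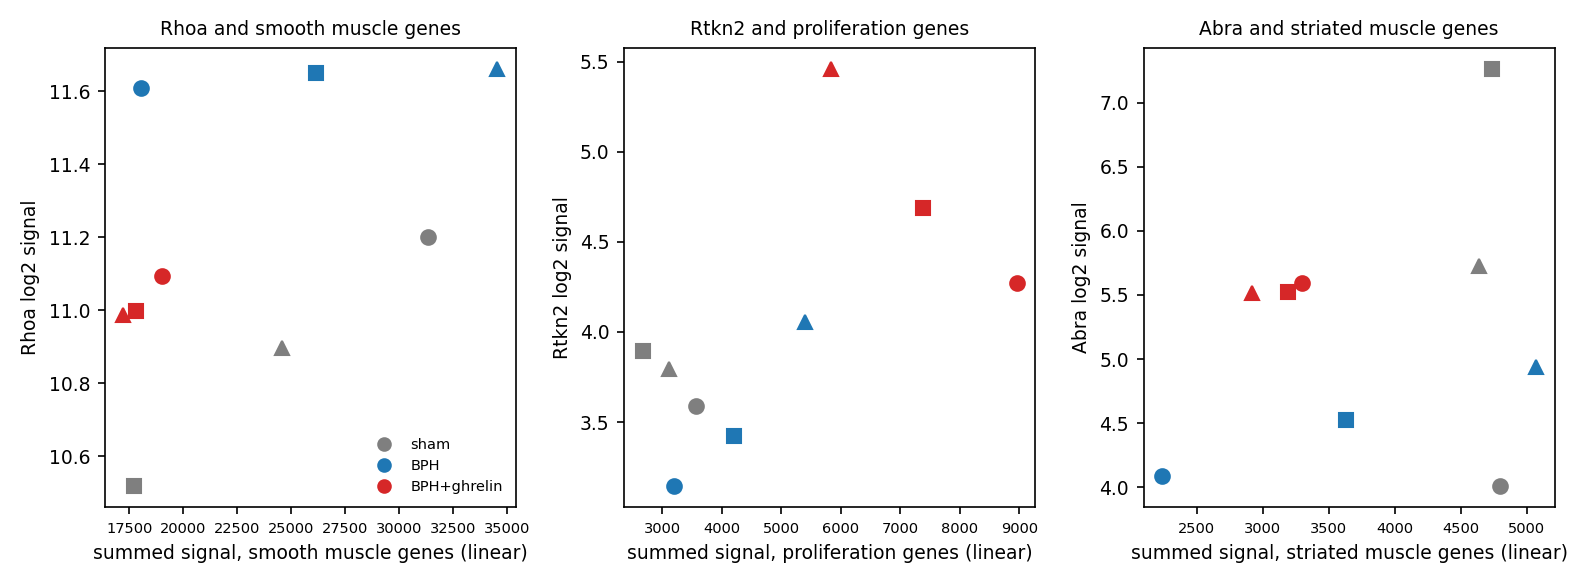
Log2 signal of Rhoa, Rtkn2 and Abra (vertical axes) against the summed linear signal of smooth muscle, proliferation and striated muscle genes (horizontal axes), 1 point per array, coloured by group, with replicates 1, 2 and 3 as circles, squares and triangles. Within each group Rhoa has the order of the smooth muscle sum, Rtkn2 has the order of the proliferation sum within BPH but the opposite one within the other groups, and Abra has the order of the striated muscle sum within BPH and BPH+ghrelin but not within sham.

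The members are compared as a group by counts only. In BPH against sham, 1 of 9 was called (Rhoa), 3 did not overlap between groups, against 31.3% of all genes (Rhoa and Limk2 higher, against 17.1%; Limk1 lower, against 14.2%), and 2 had an unadjusted p under 0.05 (Rhoa and Limk1), against 26.5%. The median difference of the 9 members was -0.0099 in this comparison, -0.18 in BPH+ghrelin against BPH and 0.15 in BPH+ghrelin against sham, compared to 0.039, 0.015 and 0.041 for all genes. In BPH+ghrelin against BPH, 0 of 9 were called by limma after adjustment, against 1.48% of 19749 genes, while 4 had an unadjusted p under 0.05 (Limk1 and Rtkn2 higher, Rhoa and Rock2 lower), against 21.1%. With the 6 arrays alone, 3 were called (Rhoa, Limk1 and Abra), against 10.6% of all genes in that fit. The arrays did not overlap for 7 members, against 39.2% of all genes: Limk1, Rtkn2 and Abra were higher, against 19.8%, and Rhoa, Rhob, Rock2 and Limk2 were lower, against 19.3%. With normexp, 4 members did not overlap, against 35.7% of all genes. By the 2-fold criterion used in the study, Limk1, Rtkn2 and Abra were past it and higher and 0 were lower, against 2.9% of all genes past it and higher and 6.1% in both directions; since the study chose Rtkn2, Abra and a LIM kinase gene, which it names Limk2, on these arrays, nothing is read from that count. In BPH+ghrelin against sham, 0 of 9 were called by limma after adjustment, against 6.3% of 19197 genes; 1 (Rtkn2) had an unadjusted p under 0.05 and did not overlap, against 23.7% and 30.4%. Both of the first comparisons use the same 3 BPH arrays, so that opposite signs in them, as for Rhoa and Limk1, are not independent of each other.

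**Figure D4:**
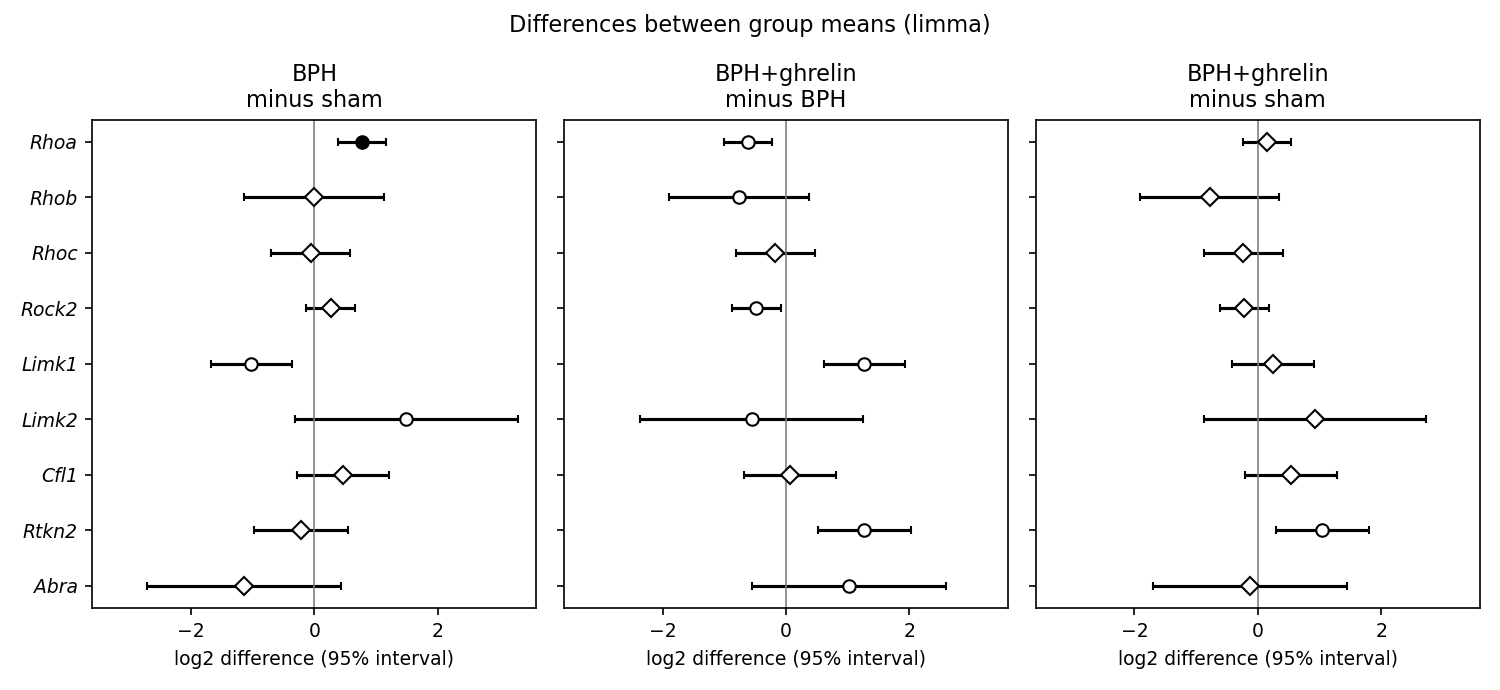
Differences of group means (log2, horizontal axis) with 95% intervals from limma for the 9 genes with a probe in the 3 comparisons (n = 3 per group); filled symbols passed the adjusted threshold, circles mark groups without overlap and diamonds groups that overlap. Rhoa at 0.77 in BPH minus sham is the filled symbol, and the intervals of Limk2 and Abra are the widest.

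Other genes of the pathway were taken from a list of 114 genes in 8 roles, of which 91 had a probe. Between BPH and sham, 4 of 88 tested genes were called, 2 higher and 2 lower, and 65 were higher and 23 lower regardless of the test; the median difference was 0.18, against 0.039 for all genes. Between BPH+ghrelin and BPH, 2 of 87 were called, both lower, and 63 were lower and 24 higher, with a median of -0.28, against 0.015 for all genes. The arrays did not overlap for 43 genes, against 39.2% of all genes (37 lower, against 19.3%, and 6 higher, against 19.8%). Between BPH+ghrelin and sham, 6 of 86 were called, 1 higher and 5 lower, with a median of -0.055, against 0.041. The first count includes Rnd1 and the last Arhgap28, each of which passed the filter on dim probes only through the group where it was high. These counts describe the list, and the percentages called among all genes were 4.33%, 1.48% and 6.3%. With scan as a fixed block, 0, 0 and 1 of these genes were called (Ccn1 in BPH+ghrelin against sham), and all of the differences called above kept their direction. Scaled to the 75th percentile, 53 of 88 genes were higher in BPH than in sham (median 0.064) and 56 of 87 had a lower mean with ghrelin than in BPH (median -0.14); without sham replicate 2 the first count was 55 of 88 (median 0.11). Over 21 settings the medians were 0.064 to 0.26 and -0.37 to -0.14 in these comparisons, and -0.20 to 0.034 for BPH+ghrelin against sham, where the sign was not stable.

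The targets of actin and Hippo signalling, the matricellular proteins Ccn1 and Ccn2, had the largest called differences of the branch of STARS, MRTF and SRF. Ccn1 was 9.87, 9.70 and 9.75 in sham, 8.24, 7.89 and 7.50 in BPH, and 7.56, 7.33 and 7.16 in BPH+ghrelin. It was highest on all sham arrays, while BPH and BPH+ghrelin overlapped. Ccn1 fell by 1.90 on the log2 scale in BPH (SE 0.20, limma adjusted p = 0.00371) and fell by 2.42 in BPH+ghrelin (SE 0.20, limma adjusted p = 0.000738) compared to sham, and was called whichever array was left out. Ccn2 was 10.81, 10.74 and 10.73 in sham, 11.38, 10.94 and 10.39 in BPH, and 9.18, 9.36 and 9.59 in BPH+ghrelin. It was lowest on all BPH+ghrelin arrays, and it fell there by 1.53 on the log2 scale against BPH (SE 0.24, limma adjusted p = 0.0301) and fell by 1.39 against sham (SE 0.24, limma adjusted p = 0.0172). The call against BPH was kept without BPH replicate 3 and sham replicates 1 and 2 in turn and lost without each of the other 6 arrays (-1.78 to -1.29), and that against sham was lost without BPH+ghrelin replicates 1 and 2 and sham replicate 3 (-1.49 to -1.29 over all 9). Of 13 tested genes in this branch, 10 had a lower mean with ghrelin than in BPH (median -0.45), among them cytoplasmic actin Actb (-1.03 ± 0.25, limma adjusted p = 0.0813). Acta2, Actg2, Tagln, Cnn1 and Myocd of this branch are also smooth muscle markers; 9 of 10 smooth muscle genes had a probe, and their summed signal was 18065 to 34529 in BPH, 17236 to 19016 in BPH+ghrelin and 17719 to 31310 in sham. Its part in the lower values was not tested.

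Both promoters are shown because these targets were the called genes of the branch of STARS, MRTF and SRF, with TEAD motifs in capitals (build GRCr8, RefSeq, gene direction; Ccn1 at chr2:237225690-237225889 and Ccn2 at chr1:22624615-22624814, both on the minus strand). The Ccn2 window holds 3 matches and the Ccn1 window 1. Of 8 windows of called pathway genes, 3 held the motif (Ccn1, Ccn2 and Cdc42bpa), against 14.2% of all windows. Ccn1 and Ccn2 were listed as targets and then picked by their calls, so that nothing is read from that count.
Ccn1: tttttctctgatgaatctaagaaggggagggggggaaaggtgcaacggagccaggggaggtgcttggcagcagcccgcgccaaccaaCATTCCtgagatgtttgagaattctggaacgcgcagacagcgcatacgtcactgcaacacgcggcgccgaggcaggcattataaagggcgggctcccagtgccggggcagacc
Ccn2: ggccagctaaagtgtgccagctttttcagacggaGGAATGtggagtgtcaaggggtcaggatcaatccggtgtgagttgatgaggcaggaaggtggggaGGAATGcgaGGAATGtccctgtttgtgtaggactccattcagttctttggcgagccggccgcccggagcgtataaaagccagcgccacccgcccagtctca

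Among the other GTPases of the family, limma called Rnd3, whose protein opposes RhoA and binds a ROCK kinase, and the related Rnd1, in 1 comparison each, whereas Rnd2 was called in none (0.29 ± 0.22 in BPH+ghrelin against BPH, limma adjusted p = 0.488). Rnd3 was 6.10, 6.20 and 6.37 in BPH, 4.61, 4.75 and 4.55 in BPH+ghrelin, and 5.69, 4.62 and 5.30 in sham. BPH was above all other arrays. Rnd3 fell in BPH+ghrelin against BPH by 1.59 on the log2 scale (SE 0.25, limma adjusted p = 0.0306), a call kept without sham replicates 1 and 2 in turn and lost without each of the other 7 arrays (-1.65 to -1.52). With normexp the difference was -0.66 (limma adjusted p = 0.0158), and BPH exceeded sham by 1.02 ± 0.25 without passing (limma adjusted p = 0.0587). Rnd1 was well above background on all BPH arrays (2.93, 2.83 and 2.98) and on 0 arrays of either other group. It entered the tests only through the BPH arrays, so that its call in BPH against sham (limma adjusted p = 0.0260) rests on sham values not well above background. No fold is given there because the mean detection limit of sham was above the BPH mean, and Rnd1 was at least 1.16-fold lower in BPH+ghrelin than in BPH (limma adjusted p = 0.0542). The call of Rnd1 in BPH was lost without each BPH array, BPH+ghrelin replicate 2 and sham replicate 3, was made in 4 of 10 other settings, and the difference was 0.10 with normexp. Of 12 GTPases tested, 9 had a lower mean with ghrelin than in BPH, including Rhog (-0.69 ± 0.17, limma adjusted p = 0.0927), and Rhod was 0.46 ± 0.13 higher (limma adjusted p = 0.112).

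The Rnd3 promoter (chr3:55998495-55998694, minus strand, build GRCr8) is shown because it was the window of a called pathway gene with a CArG box, which is in capitals.
Rnd3: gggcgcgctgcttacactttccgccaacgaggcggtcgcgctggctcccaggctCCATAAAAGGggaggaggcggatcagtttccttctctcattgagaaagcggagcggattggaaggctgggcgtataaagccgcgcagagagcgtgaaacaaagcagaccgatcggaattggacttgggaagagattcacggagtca

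Of the regulators that load or unload GTP, Arhgef3, an exchange factor for RhoA and RhoB, was 9.72, 9.61 and 9.73 in sham, 9.06, 8.67 and 8.30 in BPH, and 8.03, 8.07 and 8.28 in BPH+ghrelin. The sham arrays were above all others. It fell against sham by 1.01 on the log2 scale in BPH (SE 0.19, limma adjusted p = 0.0316) and fell by 1.56 in BPH+ghrelin (SE 0.19, limma adjusted p = 0.00462). The first call was lost without BPH replicates 2 and 3, BPH+ghrelin replicates 2 and 3 and sham replicate 3 (-1.21 to -0.82), and the second was kept whichever array was left out. With the mean of its probes the second difference was -0.84 (limma adjusted p = 0.0971), and with scan as a fixed block it was -1.49 (limma adjusted p = 0.108). Arhgap28, a GAP, was 6.24, 3.97 and 5.70 in sham and was not well above background on any BPH+ghrelin array, where it was at least 6.00-fold lower (limma adjusted p = 0.0152), a call lost without BPH+ghrelin replicates 2 and 3 and sham replicate 3. It entered this test only through the sham arrays, and with normexp the difference was -0.65 (limma adjusted p = 0.0549). In BPH it was 3.41, 3.08 and 2.64, the last not well above background, and the difference from sham did not pass (-2.26 ± 0.53, limma adjusted p = 0.0533). Of the exchange factors, 9 of 11 had a lower mean with ghrelin than in BPH, and 0 were called, against 3 at an unadjusted p under 0.05 in limma, compared to 21.1% of all genes.

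Kctd13, which codes for an adaptor for the degradation of RhoA, was 5.53, 5.39 and 5.62 in BPH, 5.02, 4.47 and 4.78 in sham, and 5.00, 4.87 and 4.76 in BPH+ghrelin. It was highest on the BPH arrays and rose there by 0.76 ± 0.16 against sham (limma adjusted p = 0.0426), a call kept without sham replicate 1 and lost without each of the other 8 arrays (0.61 to 0.89), and 0.25 with normexp (limma adjusted p = 0.0704); the difference of BPH+ghrelin from BPH was -0.64 ± 0.16 (limma adjusted p = 0.0938). The myosin light chain branch, with the phosphatase subunits that ROCK inhibits, was measured for all 14 listed genes. Of these, 13 were higher in BPH than in sham (median 0.31) and 11 had a lower mean with ghrelin than in BPH (median -0.44; 9 without overlap, against 39.2% of all genes), while limma called 0 in either comparison, against 3 (higher) and 5 (lower) at an unadjusted p under 0.05, a threshold that 26.5% and 21.1% of all genes passed. Scaled to the 75th percentile, 9 were higher in BPH (median 0.098) and the median with ghrelin was -0.20; with scan as a fixed block, 9 were higher in BPH. The smooth muscle sum of 18065 to 34529 in BPH, 17236 to 19016 in BPH+ghrelin and 17719 to 31310 in sham stood beside these values, as did Myh11, the smooth muscle myosin heavy chain, with means of 11.33, 10.37 and 11.44, and their part was not tested. Examples were the kinase Dapk3, at 0.56 ± 0.16 in BPH against sham (limma adjusted p = 0.0827), and moesin (Msn), an actin linker, at -0.58 ± 0.18 in BPH+ghrelin against BPH (limma adjusted p = 0.129), which was named after its values were seen.

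In the cofilin cycle, 10 of 11 tested genes had a lower mean with ghrelin than in BPH (median -0.40), and 0 were called by limma, against 6 at an unadjusted p under 0.05 (5 lower, and Pdxp, a cofilin phosphatase, at 0.49), compared to 21.1% of all genes. Scaled to the 75th percentile the median was -0.14, and with scan as a fixed block 8 of 11 had a lower mean. Coro1a, a coronin of leukocytes, was 9.66, 9.67 and 9.61 in sham, 9.64, 9.35 and 9.08 in BPH, and 8.75, 8.77 and 8.79 in BPH+ghrelin. BPH+ghrelin was below all other arrays, and Coro1a fell there by 0.88 on the log2 scale against sham (SE 0.15, limma adjusted p = 0.0174), a call lost without any of the BPH+ghrelin arrays and without sham replicate 3 (-0.90 to -0.87). Lymphocyte genes, of which 8 of 10 had a probe and 5 entered the sum, summed to 466 to 527 in BPH+ghrelin, 604 to 758 in BPH and 753 to 865 in sham, and the part of this in the Coro1a value was not tested. Cap1, an actin monomer-binding protein, differed by -0.79 ± 0.21 between BPH+ghrelin and BPH (limma adjusted p = 0.0971), and Twf2, a twinfilin, by 0.89 ± 0.25 between BPH and sham (limma adjusted p = 0.0844). Cdc42bpa, a kinase related to ROCK that acts with Cdc42, was 9.25, 9.23 and 9.23 in BPH+ghrelin, 8.88, 8.93 and 9.08 in BPH, and 8.69, 8.44 and 8.57 in sham. The 3 groups did not overlap, and Cdc42bpa rose in BPH+ghrelin against sham by 0.68 ± 0.12 (limma adjusted p = 0.0181). This call was lost without any of the BPH+ghrelin arrays, BPH replicate 2 and sham replicate 3 (0.61 to 0.74). The regulators of ROCK and LIM kinases had a median of 0.054 in BPH+ghrelin against BPH, and the GAPs and GDIs one of -0.016, which became 0.020 when scaled to the 75th percentile; the other 6 roles had medians below 0 in all 21 settings.

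**Figure D5:**
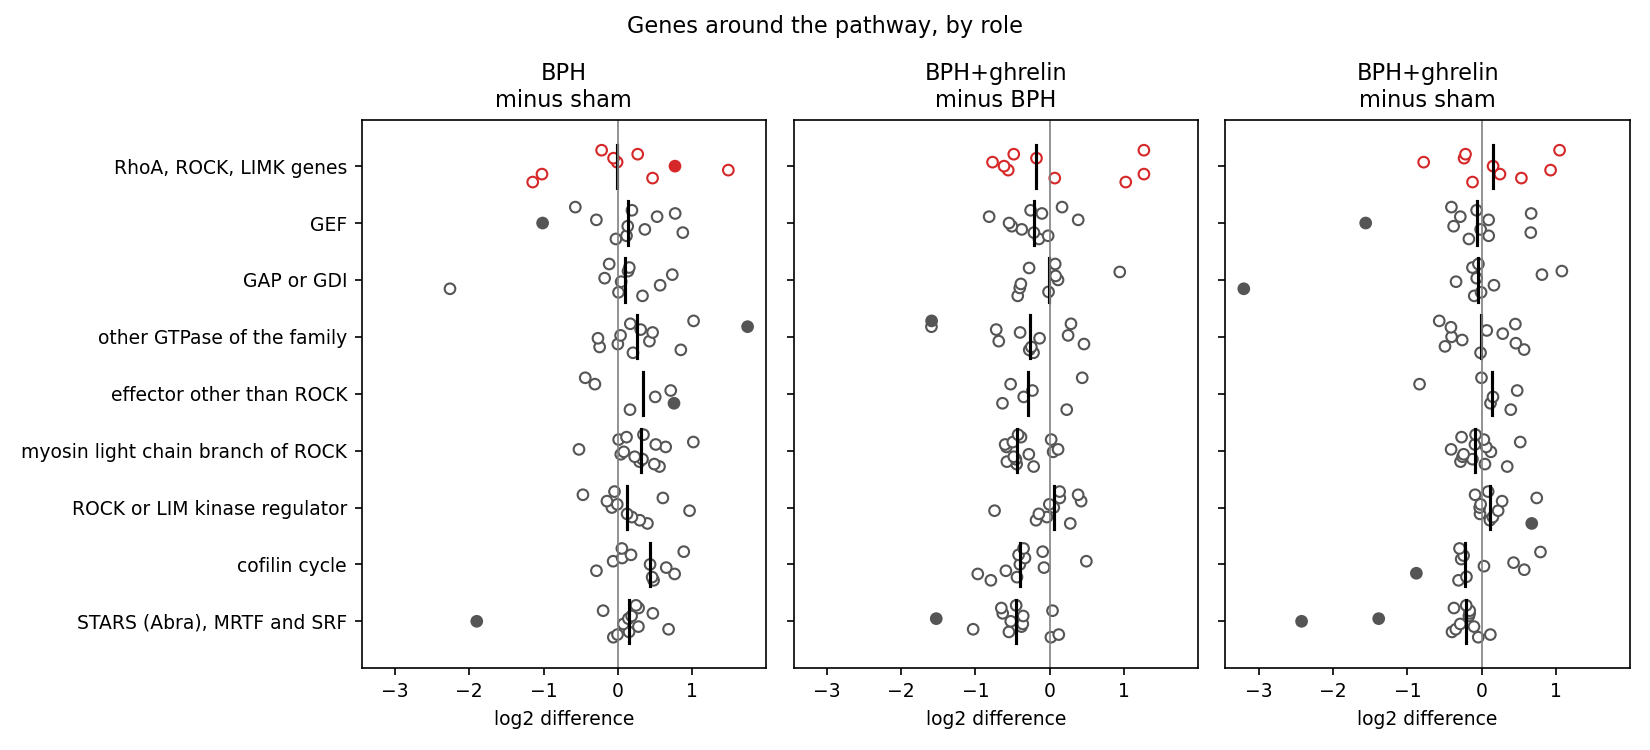
Differences of group means (log2, horizontal axis, the same scale in all panels) for the 9 members (red) and the other pathway genes tested (grey) by role, 1 point per gene; filled points passed the adjusted threshold, and vertical black bars are medians. In BPH+ghrelin minus BPH the medians of the myosin light chain branch (-0.44), the cofilin cycle (-0.40) and the STARS branch (-0.45) lie left of 0; points of Rnd1 and Arhgap28 are fitted values and include arrays not well above background.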

How the data were processed

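RNA of 9 rat prostates had been labelled with Cy3 and hybridized to Agilent one-colour rat arrays. The intensities deposited by the authors come from Feature Extraction 11.0.1.1, are linear, background-subtracted and not normalized between arrays; per the file headers the array annotation belongs to rn4. The log2 matrix deposited by the authors had been quantile normalized in GeneSpring GX 12.1 and was used as an alternative.

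Outlier spots were removed, spots of a probe were averaged, and log2 signals of 30356 probes were quantile normalized over 9 arrays (R 4.3.3, limma 3.58.1). Accessions were matched to RefSeq (GRCr8) for 18005 of 30367 probes (59.3%). Probes well above background on at least 3 of 6 compared arrays were kept, and the brightest probe represented a gene. limma (lmFit, eBayes) was fitted to 3 groups and 9 arrays, with 6 residual degrees of freedom, and Benjamini-Hochberg adjustment over all genes; the script was tested on simulated data. With 3 arrays in each of 2 groups, 0.1 is the smallest two-sided exact permutation p, and the number of arrays limits the precision.

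Named genes were all members, pathway genes called or of lowest p up to 8 per comparison, the brightest markers of each list, and the 3 genes most alike to Rhoa, Abra and Rtkn2, of which 1 for Abra is not reported here. Marker lists were striated muscle, smooth muscle, fibroblast, secretory and basal epithelium, seminal vesicle, lymphocyte, macrophage, endothelium and proliferation. The members, lists and tests were chosen with earlier results of these data known. A bound ("at least N-fold") was computed against the lowest signal well above background on each array. Alternatives were scaling to the 75th percentile, normexp (offset 50), other filters, the average over a gene's probes, the 6 compared arrays alone, blocks for replicate number or scan, a trended and robust eBayes, the deposited matrix, and each array left out.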

Additional observations from a re-analysis of the deposited data

How the results depend on the processing

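Limits: 3 arrays per group, 1 array in each group that lay between the others for most probes, 1 dim sham array and a scan layout that separates BPH from sham. Of the alternatives for single members, 493 kept direction and side of the threshold, 11 lost the call, all of Rhoa in BPH against sham, 13 gained one and 19 changed sign. The causes were not tested.

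Rhoa in BPH against sham (0.59 to 0.93 with an array left out) was not called without the filter on dim probes, with only the 6 arrays compared, with the replicate block and with scan as a fixed block, so that 0 members were called in each. The replicate numbers did not pair the arrays (correlations of deviations of same-numbered arrays -0.067, 0.078 and -0.035 for BPH and BPH+ghrelin, -0.0043, -0.028 and -0.017 for BPH and sham, and 0.38, -0.032 and -0.18 for BPH+ghrelin and sham). With the replicate block the pathway genes called were 1, 0 and 4 and all genes called 243, 17 and 461 in BPH against sham, BPH+ghrelin against BPH and BPH+ghrelin against sham (847, 293 and 1210 in the main fit). With scan as a fixed block the pathway genes were 0, 0 and 1 and all genes 2, 2 and 84. With scan as a random block (correlation -0.21) members called were 3 and 3, pathway genes 34 and 13 and all genes 7088 and 1830 in the first comparisons. With only the 6 arrays, members were 0 and 3, pathway genes 1 and 14 and all genes 181 and 2101. Without the filter all genes called were 533, 195 and 803. With trend and robust, 2 pathway genes were called in BPH against sham. The 2-fold criterion gave 3, 3 and 1 members (all genes 8.16%, 6.1% and 7.41%) and unadjusted p gave 2, 4 and 1. Members without overlap in BPH+ghrelin against BPH were 4 with normexp (35.7% of all genes), and against sham 2 with normexp (28.7%) and 2 with scaling to the 75th percentile (30.5%). That scaling gave 517 calls in BPH+ghrelin against BPH (244 higher, 273 lower, against 98 and 195) and 287 higher and 611 lower in BPH against sham (421 and 426), where it moved the median of all genes from 0.039 to -0.09.

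Signs changed for differences that had not passed, among them that of Limk2 between BPH+ghrelin and sham. BPH minus sham became 0.39 for Rhob with the mean of its probes, 0.16 for Rhob and 0.054 for Rhoc with scan as a random block, and -0.058 for Cfl1 and 0.60 for Rtkn2 with scan as a fixed block. BPH+ghrelin minus BPH became 0.046 for Rhoc with scan as a fixed block and -0.076 for Cfl1 with it as a random block. With an array left out, BPH minus sham ranged from -0.65 to 0.43 for Rhob and -0.39 to 0.19 for Rhoc, and BPH+ghrelin minus BPH from -0.12 to 0.23 for Cfl1. BPH+ghrelin minus sham ranged from -0.022 to 0.32 for Rhoa, -0.56 to 0.015 for Rhoc, -0.011 to 0.57 for Limk1, -0.14 to 1.60 for Limk2 and -0.95 to 0.68 for Abra. Members called ranged from 0 to 3, 0 to 2 and 0 to 1, members without overlap from 3 to 6, 7 to 8 and 1 to 5 (all genes 31.3% to 52.8%, 39.2% to 56.6% and 30.4% to 49%), pathway genes called from 1 to 18, 0 to 15 and 2 to 8, and all genes called from 119 to 3071, 3 to 2067 and 222 to 1926 in the 3 comparisons.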
